A study of Mus musculus with 32 samples.

Results

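Polysomal RNA was compared between 4T1 mouse mammary carcinoma spheroids expressing an shRNA against Dhps (ASP shDHPS) and spheroids expressing a non-targeting shRNA (ASP shSCR). The comparison took the 8 polysomal libraries of these conditions out of 32 libraries in the series, 4 per condition, and covered 17532 genes with at least 1 count among the 17757 genes of the count table. Polysomal levels were scaled within these 8 libraries unless stated otherwise. Because the library of ASP shSCR replicate 1 lay near the sub-polysomal libraries, every comparison was repeated with the 7 other libraries, in which 17465 genes had a count.

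The study asked whether aspartate of the lung environment alters translation in cancer cells through hypusination of the factor eIF5A. Spheroids of both conditions grew for 5 days on soft agar in a lung-like medium that held Matrigel, collagen I and 700 µM aspartate. Both lines were polyclonal, puromycin-selected populations carrying a pLKO lentiviral vector, and the series labels give 1 Dhps shRNA line, in which the knockdown and any off-target action of the shRNA cannot be told apart. Cycloheximide-treated lysates were separated on sucrose gradients, and 4 independent pellets per condition each gave a polysomal library, from RNA with more than 3 ribosomes, and a sub-polysomal library, from RNA with fewer.

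Deoxyhypusine synthase, encoded by Dhps, transfers an aminobutyl group from spermidine to a single lysine of eIF5A, and deoxyhypusine hydroxylase, encoded by Dohh, completes the residue as hypusine. Hypusinated eIF5A enters the ribosome when peptide bond formation slows, classically at runs of proline, and also acts in termination. An mRNA that loads many ribosomes travels deep into the gradient, so the polysomal level of a gene follows both its mRNA abundance and its ribosome load.

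Depth was similar in both groups. The ASP shSCR libraries held 20583258, 20559903, 16938122 and 19323140 counts in replicates 1 to 4, and the ASP shDHPS libraries held 16552357, 18035876, 17935016 and 18225962. Unless stated otherwise, polysomal levels are given below as CPM, the count of a gene scaled to the library total, after trimmed-mean (TMM) scaling among the 8 libraries. The counts are estimates without molecular identifiers, so the depth bears on counting error only.

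The libraries of a condition did not lie at the same place between the fractions. The position of a library was set on a scale where, among libraries of different condition, the sub-polysomal mean is 0 and the polysomal mean is 1. On it the ASP shSCR polysomal libraries lay at 0.373, 0.777, 1.02 and 0.998. Those of ASP shDHPS lay at 1.13, 0.910, 0.963 and 1.14. All 16 sub-polysomal libraries of the series were between −0.11 and 0.16, so ASP shSCR replicate 1 was between the fractions and the 7 others were near the polysomal end.

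Mitochondrially encoded mRNAs, which are translated on mitochondrial ribosomes, showed the same separation. They took 4.31% of the counts in ASP shSCR replicate 1 against 0.678%, 0.827% and 0.935% in replicates 2 to 4, and 0.342%, 0.504%, 0.400% and 0.818% in the ASP shDHPS libraries. Fth1, the ferritin heavy chain, whose mRNA is held from ribosomes when iron is low, stood at 59670, 1196, 954 and 1213 CPM in ASP shSCR and at 1133, 1204, 1409 and 1605 CPM in ASP shDHPS. Odc1, ornithine decarboxylase, the entry step of polyamine synthesis, stood at 4575, 177, 154 and 212 CPM in ASP shSCR and at 297, 247, 248 and 202 CPM in ASP shDHPS. A single library therefore set the level of both transcripts in the scramble group. It also stood above the sub-polysomal libraries of both conditions, which lay between 4898 and 14570 CPM for Fth1 and between 548 and 939 CPM for Odc1, scaled among themselves, so these levels were not between those of the fractions. Their log2 changes were −3.56 and −2.37 with 8 libraries (edgeR adjusted p = 0.289 and 0.336) and 0.28 and 0.48 with 7 (adjusted p = 0.595 and 0.361).

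**Figure D1:**
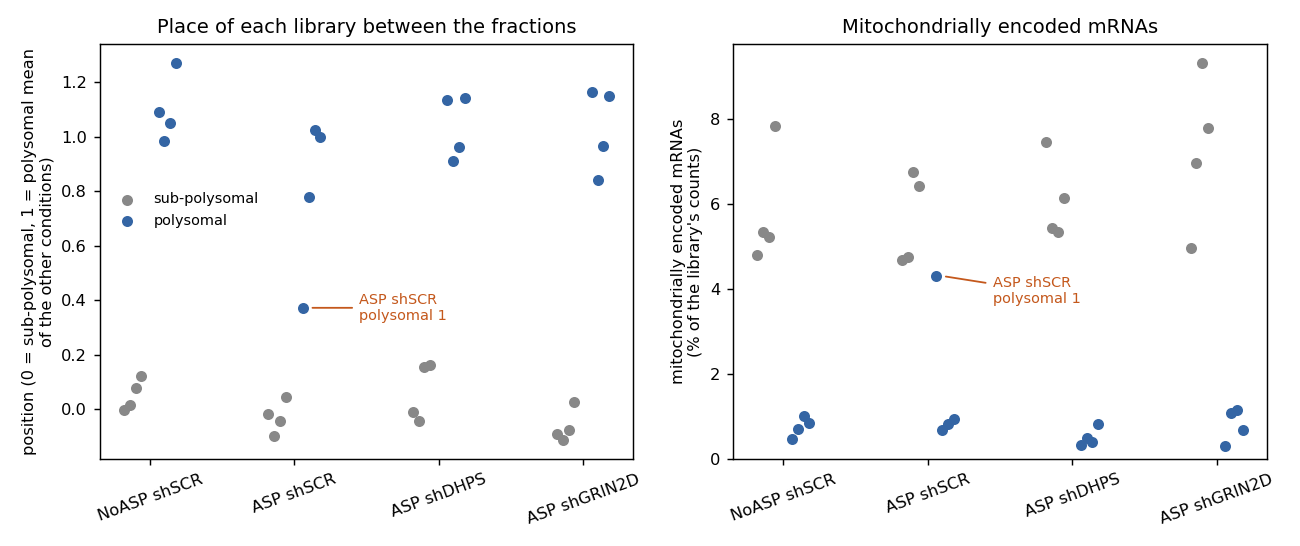
Left: position of each of the 32 libraries between the mean sub-polysomal library (0) and the mean polysomal library (1) of the other conditions, by condition and fraction. Right: mitochondrially encoded mRNAs as percent of the counts of each library. ASP shSCR polysomal replicate 1 lies at 0.373 and 4.31%, apart from the other polysomal libraries of the comparison.

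The targeted gene was examined first. Dhps (GENCODE M21, GRCm38, chr8:85071757-85075162) stood at 22.1, 43.8, 36.0 and 32.1 CPM in ASP shSCR and at 9.74, 13.1, 11.3 and 8.48 CPM in ASP shDHPS. Every knockdown library was below every scramble library. The log2 change was −1.65 (SE 0.26, n = 4 per group), with an unadjusted p of 2.17e-05 and an adjusted p of 0.107 in the edgeR quasi-likelihood test over all genes. With the 7 libraries Dhps fell by 1.78 on the log2 scale (SE 0.25, adjusted p = 0.000586), which left 29.1% of the scramble level. In the sub-polysomal libraries of the same pellets it fell by 2.01 (adjusted p = 8.46e-08).

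The partners of Dhps gave no call. Eif5a, the substrate, stood at 1897, 2196, 1788 and 1614 CPM in ASP shSCR and at 1952, 2204, 2597 and 1518 CPM in ASP shDHPS, and the groups overlapped (log2 change 0.14, SE 0.23, adjusted p = 0.816). Dohh stood at 72.0, 111, 103 and 105 CPM against 183, 104, 141 and 123 CPM, with overlap (0.49, SE 0.24, adjusted p = 0.399). Its second paralogous substrate, Eif5a2, stood at 5.73, 5.74, 5.67 and 5.06 CPM in ASP shSCR and at 2.34, 8.16, 1.30 and 6.82 CPM in ASP shDHPS, where the libraries spread to both sides of the scramble values. Grin2d, the NMDA receptor subunit targeted in another arm of the study, had a log2 change of 0.31 (SE 0.33, adjusted p = 0.701).

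With all 8 libraries, 1 of 17532 genes passed an adjusted p of 0.05, which is 0.0057%, and it was higher in ASP shDHPS. Without adjustment, 535 genes were higher (3.05%) and 1729 were lower (9.86%) at p under 0.05. No overlap between the 4 knockdown and the 4 scramble values was found for 340 genes that were higher (1.94%) and for 762 that were lower (4.35%). The 0 lower calls depended on the test, since DESeq2 called 18 genes higher and 103 lower, and limma-voom with sample quality weights called 16 and 238. Scaling by the upper quartile gave 878 higher and 1400 lower genes at unadjusted p under 0.05, so the split between the directions moved with the scaling.

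With the 7 libraries, 23 genes were called higher (0.132%) and 186 lower (1.06%) by the same edgeR test. All 186 lower genes were also lower in the 8-library fit with an unadjusted p under 0.05, and in 117 of them the 4 scramble values all lay above the 4 knockdown values. Their median log2 change was −1.22 with 7 libraries and −1.15 with 8. Of the 23 higher genes, 22 had the same direction with 8 libraries and 17 an unadjusted p under 0.05. Their median log2 change was 1.48 with 7 libraries and 1.09 with 8. The 8-library fit holds the same 7 libraries that selected these genes, so much of this agreement is built in. The number of calls depended on single libraries, since leaving out ASP shDHPS replicate 3 as well gave 6 higher and 34 lower genes, and leaving out ASP shDHPS replicate 2 gave 64 and 409. Leaving out ASP shDHPS replicate 1 gave 15 and 61. The number also depended on the model and the filter. On the same 7 libraries DESeq2 gave 72 and 387, a replicate block 324 and 643, and a filter on low counts 12 and 89.

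**Figure D2:**
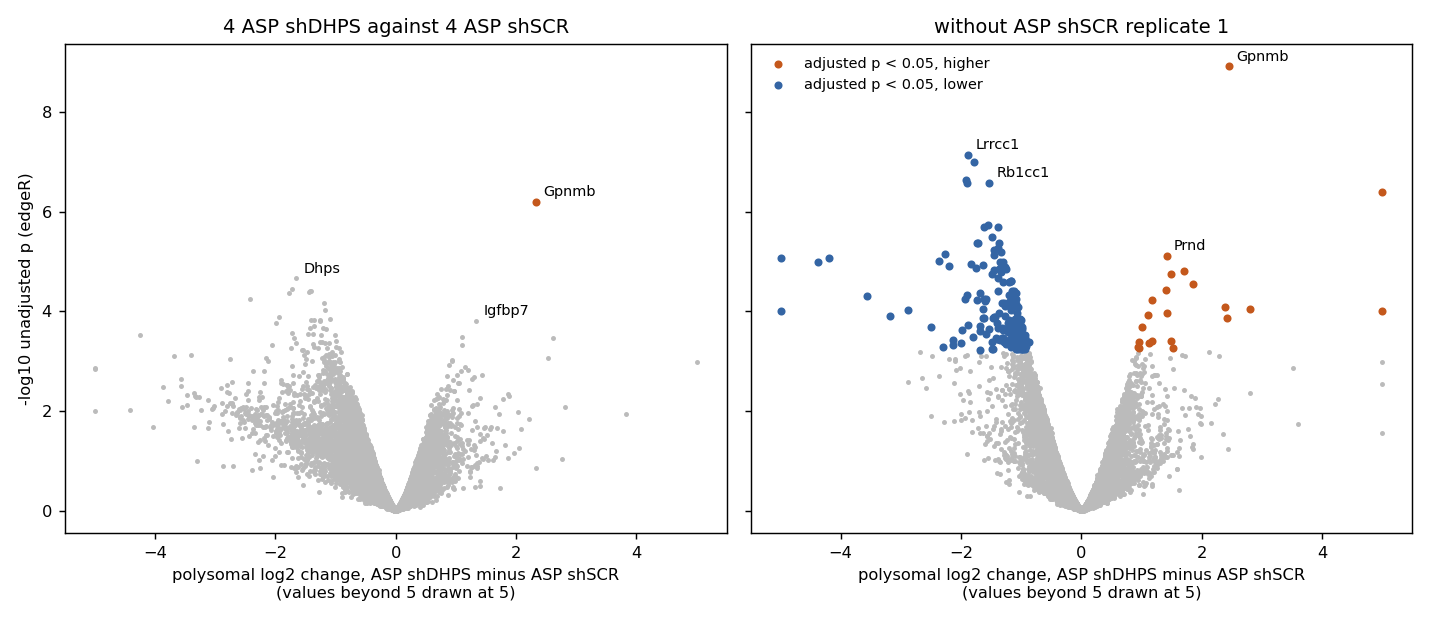
Log2 change of polysomal levels, ASP shDHPS against ASP shSCR, on the horizontal axis and −log10 of the unadjusted edgeR p on the vertical axis, with 8 libraries (left) and without ASP shSCR replicate 1 (right), for genes with a mean of at least 10 counts; changes beyond 5 are drawn at 5. Coloured points passed the adjusted threshold: Gpnmb on the left, and on the right 23 higher and 186 lower genes before the limit on counts.

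Gpnmb, a lysosomal and cell-surface glycoprotein whose transcription follows lysosomal stress, was the gene called with 8 libraries. It stood at 22.7, 12.5, 19.0 and 22.3 CPM in ASP shSCR and at 112, 66.0, 109 and 99.8 CPM in ASP shDHPS, with no overlap. It rose by 2.34 on the log2 scale (SE 0.27, n = 4 per group, adjusted p = 0.0112), and by 2.46 without ASP shSCR replicate 1 (adjusted p = 2.13e-05). The call with 8 libraries was lost when ASP shSCR replicate 3 (adjusted p = 0.0546) or ASP shDHPS replicate 1 (0.0866), 3 (0.0878) or 4 (0.0547) was left out, at log2 changes between 2.26 and 2.36. In the sub-polysomal libraries Gpnmb rose by 1.93 (adjusted p = 1.64e-05).

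Other genes higher in ASP shDHPS included those of secreted proteins. Igfbp7, a secreted insulin-like growth factor-binding protein of the matrix, stood at 5.66, 4.28, 3.85 and 4.32 CPM in ASP shSCR and at 11.7, 12.6, 12.9 and 8.60 CPM in ASP shDHPS. Cst6, the secreted cysteine protease inhibitor cystatin E/M, stood at 60.6, 62.3, 62.0 and 65.6 CPM against 104, 120, 189 and 123 CPM. For Prl2c3, a member of the placental prolactin family, the levels were 162, 209, 299 and 230 CPM against 442, 595, 404 and 492 CPM. The groups did not overlap for any of these genes, and the lowest knockdown library exceeded the highest scramble library each time. With 7 libraries Igfbp7 rose by 1.49 on the log2 scale (adjusted p = 0.00789), Cst6 by 1.11 (0.0227) and Prl2c3 by 1.01 (0.0302). With 8 libraries their adjusted p-values were 0.161, 0.197 and 0.200. Prl2c3 belongs to a family of near-identical genes, among which estimated counts can be shared.

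Neither Cd68, a lysosomal membrane glycoprotein, nor Msrb3, a methionine sulfoxide reductase, passed the adjusted threshold in polysomes by edgeR, while with 8 libraries DESeq2 (adjusted p = 0.0296 and 0.0297) and limma-voom (0.0333 and 0.0356) called both. Cd68 stood at 10.3, 12.9, 10.8 and 12.8 CPM in ASP shSCR and at 20.6, 18.6, 26.6 and 23.6 CPM in ASP shDHPS (log2 change 0.93, SE 0.22, adjusted p = 0.225). Msrb3 stood at 6.72, 7.03, 7.54 and 6.31 CPM against 12.3, 13.6, 14.5 and 12.2 CPM (0.93, SE 0.22, adjusted p = 0.225). Both had separate groups and narrow spread. In the sub-polysomal libraries Msrb3 rose by 1.33 (adjusted p = 0.00883), and Cd68 had a log2 change of 0.21 (adjusted p = 0.691).

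In a further 7 genes called higher with 7 libraries, ASP shSCR replicate 1 stood above the other scramble libraries. Angptl4, a secreted inhibitor of lipoprotein lipase, stood at 55.4, 9.21, 29.6 and 14.9 CPM in ASP shSCR and at 85.1, 36.7, 57.2 and 49.2 CPM in ASP shDHPS. It rose by 1.70 with 7 libraries (adjusted p = 0.00720) and had a log2 change of 1.07 with 8 (adjusted p = 0.366). Atf3, a stress-induced transcription factor, stood at 34.4, 11.5, 6.99 and 7.45 CPM in ASP shSCR and at 15.2, 17.6, 24.8 and 16.3 CPM in ASP shDHPS, so that its highest value of all was a scramble library. Its log2 change was 0.30 with 8 libraries (adjusted p = 0.800) and it rose by 1.11 with 7 (adjusted p = 0.0416). B4galt7, which adds the second sugar of proteoglycan linkers, rose by 1.17 with 7 libraries (adjusted p = 0.0164) and had a log2 change of 0.65 with 8 (0.435). Also called higher with 7 libraries were Ccn1, a matricellular protein (1.41, adjusted p = 0.0137), Prnd, the prion-like protein doppel (1.41, 0.00633), Adamts8, a secreted metalloprotease (1.48, 0.0413), and Chka, the first enzyme of phosphatidylcholine synthesis (1.16, 0.0413).

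Lrrcc1, a centrosomal coiled-coil protein, stood at 11.5, 21.0, 26.2 and 23.4 CPM in ASP shSCR and at 5.67, 7.17, 5.02 and 6.93 CPM in ASP shDHPS. Pgap1, which remodels the inositol of glycosylphosphatidylinositol anchors, stood at 10.3, 20.4, 15.7 and 20.7 CPM against 3.45, 4.38, 5.31 and 6.49 CPM. In both genes the lowest scramble value was ASP shSCR replicate 1, and it still exceeded the highest knockdown value. With 7 libraries Lrrcc1 fell by 1.89 on the log2 scale (SE 0.26, adjusted p = 0.000586) and Pgap1 fell by 1.91 (SE 0.28, adjusted p = 0.000782). With 8 libraries their log2 changes were −1.73 and −1.77, both at an adjusted p of 0.107.

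Smc6, a subunit of the SMC5/6 complex that holds chromosomes during repair, stood at 57.4, 47.7, 44.0 and 55.0 CPM in ASP shSCR and at 16.2, 26.2, 15.3 and 18.9 CPM in ASP shDHPS. Sesn3, a stress-induced inhibitor of mTORC1 signalling, stood at 100.1, 124, 64.9 and 104 CPM against 33.1, 42.4, 33.9 and 37.4 CPM. Tmf1, a Golgi coiled-coil protein, stood at 22.2, 24.8, 20.4 and 29.1 CPM against 7.15, 11.1, 9.82 and 7.21 CPM. ASP shSCR replicate 1 was the highest scramble library for Smc6 and lay among the others for Sesn3 and Tmf1, and the groups were separate for each gene. With 7 libraries Smc6 fell by 1.32 (adjusted p = 0.00673), Sesn3 fell by 1.38 (0.00610) and Tmf1 fell by 1.46 (0.00627). With the GC offset described below, Smc6 lost its call (−0.71, adjusted p = 0.113), while Sesn3 and Tmf1 kept theirs. With 8 libraries their log2 changes were −1.41, −1.42 and −1.45, at an adjusted p of 0.107 for each.

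**Figure D3:**
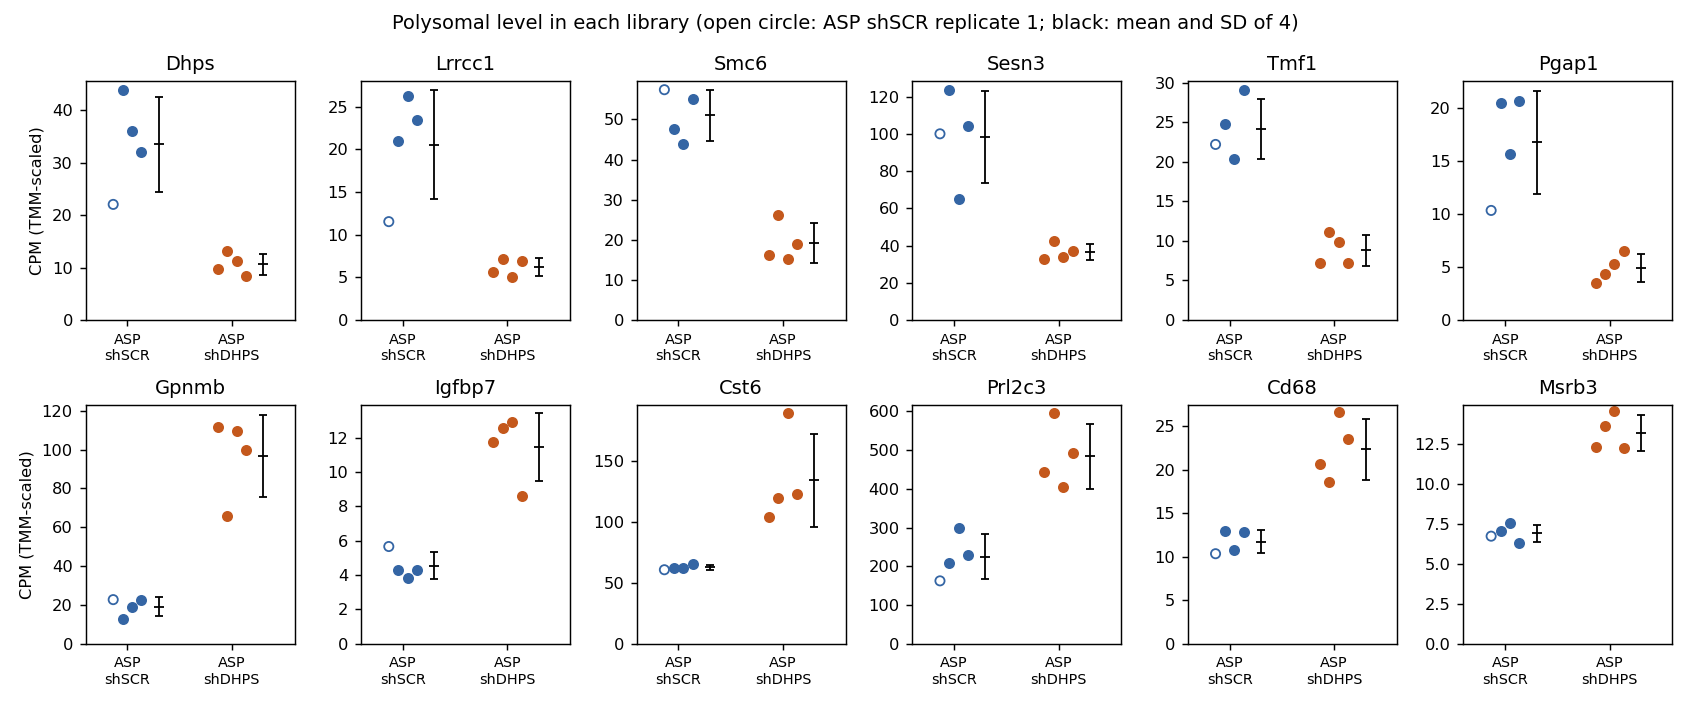
Polysomal CPM (linear axis) of Dhps, of 5 genes lower and of 6 genes higher in ASP shDHPS, 1 point per library, with ASP shSCR replicate 1 drawn open and the black mark giving mean ± SD of 4 libraries. In each of the 12 panels the knockdown points and the scramble points do not overlap.

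Further genes fell with 7 libraries. Hmgn5, a nucleosome-binding protein, fell by 1.90 (adjusted p = 0.000782), and Ift74, a subunit of the intraflagellar transport complex, fell by 1.72 (0.00534). Inhba, the chain that forms activin A, stood at 10.3, 24.2, 17.7 and 21.1 CPM in ASP shSCR and at 4.69, 7.81, 5.98 and 8.04 CPM in ASP shDHPS, and fell by 1.63 (adjusted p = 0.00362). Bend5, a BEN-domain protein, stood at 48.1, 53.8, 16.2 and 19.1 CPM in ASP shSCR, where replicates 1 and 2 were high, and at 6.91, 10.9, 10.2 and 6.65 CPM in ASP shDHPS. It fell by 1.76 in polysomes (adjusted p = 0.00703) and by 1.55 in the sub-polysomal libraries (adjusted p = 0.00119). Ppig, a nuclear cyclophilin, fell by 1.55 (0.00362) and Nlrp10, an inflammasome-related protein, fell by 1.61 (0.0166). Malat1, a nuclear long noncoding RNA, stood at 14.0, 14.3, 14.7 and 44.5 CPM in ASP shSCR and at 4.75, 9.16, 12.6 and 4.27 CPM in ASP shDHPS, with 1 high scramble library. It fell by 1.64 with 7 libraries (adjusted p = 0.0248), and without ASP shSCR replicate 4, with the 7 others, its log2 change was −0.90 (adjusted p = 0.371).

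Most of the lower genes had A or T more often at the third codon position than other genes did. A stretch of 30 codons (coding bases 301 to 390 of the longest annotated coding sequence, GENCODE M21, GRCm38) is shown for 3 lower and 3 higher genes, chosen from those described above; capitals mark the third base of a codon where it is A or T. The lower genes come first, Lrrcc1 (chr3:14533788-14572658, plus strand), Smc6 (chr12:11265886-11319785, plus strand) and Sesn3 (chr9:14275067-14333101, plus strand), and the higher genes follow, Gpnmb (chr6:49036546-49070929, plus strand), Igfbp7 (chr5:77349240-77408041, minus strand) and Cst6 (chr19:5344705-5349574, minus strand).
Lrrcc1: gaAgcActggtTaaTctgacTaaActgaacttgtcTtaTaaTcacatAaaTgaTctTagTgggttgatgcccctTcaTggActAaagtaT
Smc6: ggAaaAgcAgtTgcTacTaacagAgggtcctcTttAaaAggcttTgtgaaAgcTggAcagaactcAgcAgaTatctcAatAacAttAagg
Sesn3: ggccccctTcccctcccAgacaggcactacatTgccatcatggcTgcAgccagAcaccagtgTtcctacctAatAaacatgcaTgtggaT
Gpnmb: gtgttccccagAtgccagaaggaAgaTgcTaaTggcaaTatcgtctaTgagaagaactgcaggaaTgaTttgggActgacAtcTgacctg
Igfbp7: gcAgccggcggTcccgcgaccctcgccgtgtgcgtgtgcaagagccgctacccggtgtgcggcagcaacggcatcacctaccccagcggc
Cst6: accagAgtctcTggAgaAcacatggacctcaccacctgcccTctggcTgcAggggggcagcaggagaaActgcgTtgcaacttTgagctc

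In these stretches A or T was at the third position of 19 of 30 codons in Lrrcc1 and 21 in Smc6, against 12 in Gpnmb, 10 in Cst6 and 2 in Igfbp7. Over the whole coding sequence A or T was at the third position of 63.2% of codons in Lrrcc1 and 66.3% in Smc6, against 37.6% in Gpnmb, 29.3% in Cst6 and 28.0% in Igfbp7. Sesn3, with 11 of 30 in the stretch and 42.4% over its coding sequence, was nearer to the higher genes, as were other lower genes: G or C was at the third position of 68.1% of codons in Dhps, 67.5% in Inhba and 63.0% in Bend5.

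Of the 186 genes called lower with 7 libraries, 177 had an annotated coding sequence, and 160 of these were below the median GC3, the share of G or C at the third codon position, of the coding genes with a mean of at least 50 counts. Their median GC3 was 43.7%, against 60.2% for all such coding genes and 68.0% for 20 of the genes called higher. Their median coding length was 2319 bases against 1392 overall and 1152 for the higher genes. Lysine and glutamate codons together took a median of 17.4% of their codons, against 12.8% overall and 9.99% for the higher genes. Runs of at least 3 proline codons, the textbook stalling site relieved by hypusinated eIF5A, were in 27.1% of the lower genes and in 25.2% of all such genes. These shares are descriptions, since coding length, base composition and codon content go together across genes.

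Across all genes the change followed GC3 in opposite directions in the fractions. When the coding genes with that mean count were ordered by GC3 into 5 classes of equal size, the median polysomal log2 change with 7 libraries was −0.32 in the lowest class, −0.08, 0.08 and 0.18 in the next and 0.20 in the highest. The sub-polysomal medians of the same classes were 0.19, 0.13, 0.01, −0.09 and −0.14. The lowest class held 117 of the lower calls and the highest held 4. Genes with a longest proline run under 3, of 3, and of 4 or more codons had median polysomal log2 changes of 0.03, 0.05 and 0.03.

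The same measure varied between libraries of a group. The median log2 deviation of the lowest GC3 class minus that of the highest, on a scale set over the 16 polysomal libraries, was −0.25, 0.19, 0.09 and 0.31 in ASP shSCR and −0.74, −0.14, −0.56 and 0.10 in ASP shDHPS. Within ASP shDHPS it was strongly negative in replicates 1 and 3 and near 0 in the others, and the groups overlapped. In the sub-polysomal libraries, scaled among themselves, it was −0.35, −0.37, 0.10 and −0.02 in ASP shSCR. In ASP shDHPS it was 0.26, 0.13, 0.17 and 0.13 there, without overlap. ASP shSCR pellets 1 and 2 had the lowest sub-polysomal values. An offset for coding GC in each library, tried after seeing the data, brought the 7-library calls to 9 higher and 31 lower, from 20 and 163 in the same genes without it. All 177 lower genes with a coding sequence stayed lower with that offset and 28 of them were still called, while their median log2 change went from −1.21 to −0.91. As they had been called in the same libraries with falls of at least 0.879, the kept direction says little. Among the genes named here, Dhps, Lrrcc1, Pgap1, Sesn3, Tmf1, Hmgn5, Ift74, Inhba, Bend5, Mki67, Gpnmb, Igfbp7, Prl2c3, Angptl4, Prnd and Ccn1 kept their call. The other genes called with 7 libraries did not, apart from Malat1, which has no coding sequence. Among these, Rb1cc1 had a log2 change of −0.94 (adjusted p = 0.0514) and Pcm1 of −0.90 (0.0514), while Chka (1.21, adjusted p = 0.0617), Atf3 (1.15, 0.0558), Pdk1 (−1.88, 0.0885), Nlrp10 (−1.55, 0.0514), Ankrd37 (−3.22, 0.0853) and Bnip3 (−1.87, 0.145) had changes close to those without the offset. For the rest the log2 changes with the offset were 1.61 for Tie1, 1.23 for Hmox1, 1.22 for Adamts8, 0.96 for B4galt7, 0.89 for Cst6, 0.72 for Neu1, −0.78 for Eif3a, −0.80 for Kif5b, −0.82 for Plod2, −0.86 for Skil and −1.09 for Ppig, at adjusted p-values between 0.0514 and 0.145. The part of library base composition in the lower calls was not tested beyond this offset.

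**Figure D4:**
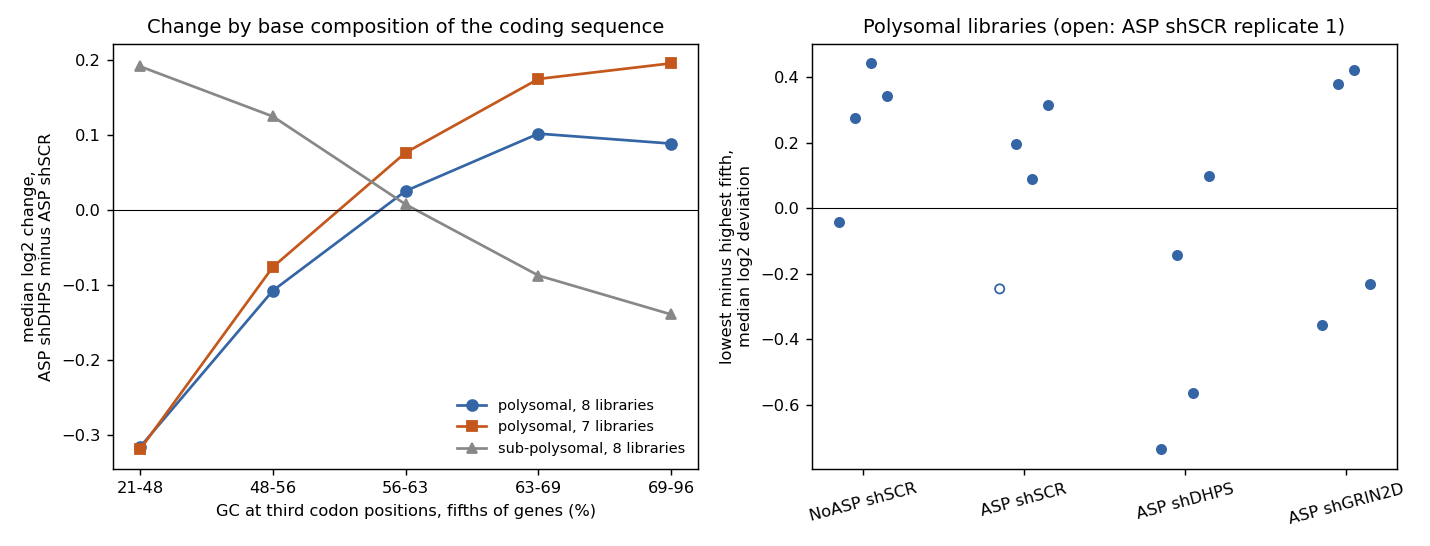
Left: median log2 change, ASP shDHPS against ASP shSCR, by class of GC3 (5 classes of equal size), for polysomal levels with 8 and with 7 libraries and for sub-polysomal levels. Right: median log2 deviation of the lowest minus the highest class in each of the 16 polysomal libraries, ASP shSCR replicate 1 drawn open; the left lines cross, from −0.32 (7 libraries) and 0.19 (sub-polysomal) in the lowest class to 0.20 and −0.14 in the highest.

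The sub-polysomal libraries of the same pellets served to ask whether the polysomal changes were also present in RNA with few ribosomes. There 301 genes (1.70%) passed the adjusted threshold, 103 higher (0.583%) and 198 lower (1.12%). Of the 186 genes called lower in polysomes with 7 libraries, 15 were also called lower there, and 148 had a sub-polysomal log2 change between −0.5 and 0.5. Their median sub-polysomal log2 change was −0.06. These values rest on all 8 pellets, as do other sub-polysomal values unless stated. Without ASP shSCR pellet 1, which the polysomal calls leave out, 39 genes were called higher (0.221%) and 118 lower (0.67%) in the sub-polysomal libraries. Then 12 of the 186 were called lower there, 141 lay between −0.5 and 0.5, and the median was −0.18. The share of all genes between these limits is not given, so the counts of 148 and 141 are descriptions only. Of the 23 higher genes, 11 were also called higher in the sub-polysomal libraries with 8 pellets (median log2 change 0.90) and 8 without pellet 1 (median 0.85).

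Whether the change differed between the fractions was tested as an interaction with the pellet as a term. With all 8 pellets edgeR called 0 genes, 1762 had an unadjusted p under 0.05, and DESeq2 called 48. Without ASP shSCR pellet 1, edgeR called 66 genes, 60 of them with the lower change in polysomes. Of these 60, 35 were among the genes called lower in polysomes, against 1.06% of all genes. Both tests used the same polysomal libraries, so part of this overlap is built in. The 66 calls were 0 after a filter on low counts (filterByExpr) and 92 by DESeq2. Over the 60 genes the median log2 change was −1.06 in polysomes and 0.32 in the sub-polysomal libraries. These genes were selected by the test for such a gap, so the medians only describe them.

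Kif5b, the heavy chain of conventional kinesin, stood at 97.6, 135, 175 and 181 CPM in ASP shSCR polysomes and at 69.2, 89.6, 57.6 and 73.0 CPM in ASP shDHPS polysomes. It fell by 1.14 in polysomes with 7 libraries (adjusted p = 0.0137) and had a sub-polysomal log2 change of 0.51 with 8 pellets (adjusted p = 0.171) and 0.38 without ASP shSCR pellet 1 (0.377). The difference of its changes was −1.59 (adjusted p = 0.00734). Pcm1, the scaffold of centriolar satellites, stood at 38.1, 56.9, 77.3 and 77.6 CPM in ASP shSCR and at 21.3, 27.7, 28.5 and 28.2 CPM in ASP shDHPS, and differed by −1.22 between fractions (adjusted p = 0.0399). Its lowest scramble library was above its highest knockdown library. For Lrrcc1 the difference was −1.35 (adjusted p = 0.0417), for Tmf1 −1.33 (0.0271) and for Ppig −1.34 (0.0258). Kif5b and Pcm1 were chosen for mention after their values were seen.

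Neither Dhps nor Gpnmb had a called difference between the fractions. The difference of changes was 0.19 for Dhps (adjusted p = 0.874) and 0.57 for Gpnmb (adjusted p = 0.494), without ASP shSCR pellet 1. Bend5 had a difference of −0.03 (adjusted p = 1.00).

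**Figure D5:**
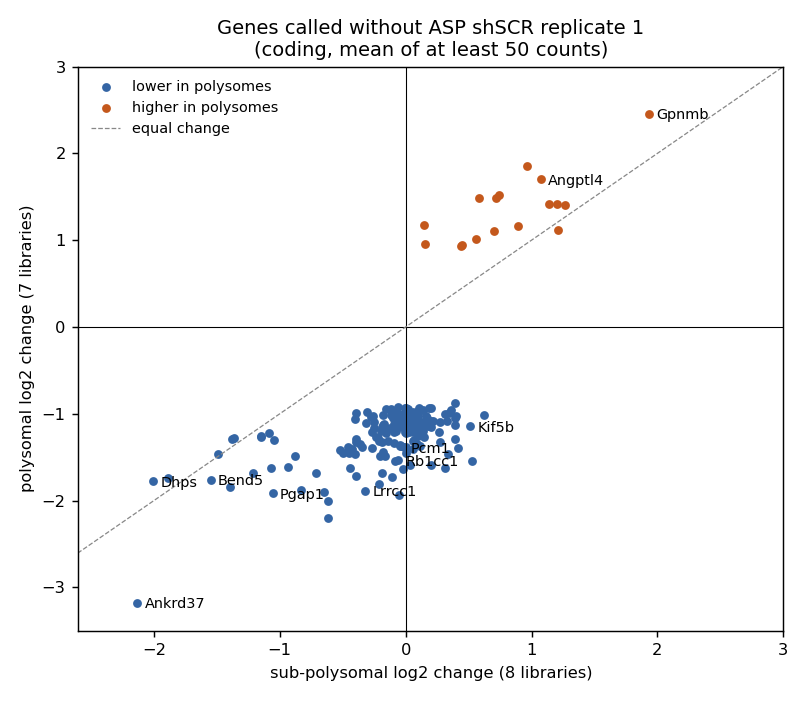
Polysomal log2 change without ASP shSCR replicate 1 (vertical axis) against the sub-polysomal log2 change (horizontal axis) for the 166 coding genes called lower and the 17 called higher in polysomes whose mean was at least 50 counts; the dashed line marks equal change. Most lower genes lie in a band near 0 on the horizontal axis, while the higher genes lie to the right of 0.

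Gene lists were described by their counts and medians, beside the all-gene medians of −0.07 (8 libraries), 0.03 (7 libraries) and 0.01 (sub-polysomal). Of 39 lists of pathways, complexes and markers, 27 held no called gene with 7 libraries, and 28 had a median above that of all genes.

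The machinery of translation gave few calls. None of 81 cytosolic ribosomal protein genes was called, with 76 of 81 above 0 and a median of 0.29 with 7 libraries, 0.09 with 8 and −0.37 in the sub-polysomal libraries. Nor was any of 40 nucleolar and ribosome biogenesis genes called, at medians of 0.37, 0.28 and 0.25. At an unadjusted edgeR p under 0.05 with 7 libraries, 16 of these 40 were higher and 2 lower. Of all genes, 5.11% were higher and 8.15% lower at that limit. Nop16, a nucleolar protein of large-subunit assembly, stood at 50.5, 63.6, 78.8 and 78.4 CPM in ASP shSCR and at 120, 99.1, 116 and 108 CPM in ASP shDHPS. The groups were separate, but its adjusted p was 0.289 with 8 libraries and 0.201 with 7. Wdr74, another assembly factor, had a log2 change of 0.70 (adjusted p = 0.297). Of 44 initiation factor genes, Eif3a, the largest subunit of eIF3, fell by 1.00 with 7 libraries (adjusted p = 0.0378) and no other was called (2.27% lower, against 1.06% of all genes). None of 10 elongation and termination factors and none of 22 cytosolic aminoacyl-tRNA synthetases was called.

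Zinc finger genes with Zfp symbols had a lower median than all genes. Of 325 tested, 13 were called lower with 7 libraries (4.00%, against 1.06% of all genes) and none higher. Groups of 4 did not overlap in 47 lower members (14.5%, against 4.35% of all genes). Their median polysomal log2 change was −0.27 with 7 libraries and −0.29 with 8, and the sub-polysomal median was 0.07. Zfp386 stood at 19.2, 21.0, 14.8 and 20.3 CPM in ASP shSCR and at 6.17, 10.8, 6.21 and 10.6 CPM in ASP shDHPS, and fell by 1.11 (adjusted p = 0.0434). Zfp995 fell by 1.69 (0.0142) and Zfp942 fell by 1.42 (0.0395). With the GC offset none of these calls remained, at log2 changes of −0.60 for Zfp386 (adjusted p = 0.248), −0.86 for Zfp995 (0.270) and −0.56 for Zfp942 (0.501). As KRAB-type zinc finger genes are near-copies of each other, the estimated counts of single members are uncertain.

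Among cell cycle genes, 2 of 33 G2/M and mitosis genes were called lower with 7 libraries (6.06%, against 1.06% of all genes). Mki67, the coat protein of mitotic chromosomes, stood at 109, 178, 238 and 273 CPM in ASP shSCR and at 66.1, 92.7, 92.9 and 104 CPM in ASP shDHPS. It fell by 1.33 (adjusted p = 0.00627), and Cenpe, a kinetochore motor, fell by 1.09 (adjusted p = 0.0294; −0.70 and 0.193 with the GC offset). The list's median was −0.10, and 7 of its 33 members were lower and none higher at an unadjusted p under 0.05, against 8.15% of all genes lower and 5.11% higher. None of 39 DNA replication genes was called. In the Hallmark collection, the mitotic spindle set had 12 of 198 genes called lower (6.06%), the E2F target set 10 of 199 (5.03%) and the G2M checkpoint set 6 of 198 (3.03%). This compares with 1.06% of all genes, and none was called higher in these sets. Their medians with 7 libraries were −0.09, 0.03 and −0.04, against 0.03 for all genes. The share of all genes includes genes of low count. It also varied with GC3, with 117 of 2065 genes called lower in the lowest GC3 class and 4 of 2065 in the highest. The GC3 of these sets was not examined, so their shares are descriptions only. Of the 50 Hallmark sets, 32 held a gene called lower and 17 a gene called higher. The UV response down set had 6 of 127 called lower (4.72%) and 1 higher. The highest median, 0.36, was that of MYC targets V2, with no call. Among the 57 replication-dependent histone genes none was called, although their median was 0.56 with 7 libraries and 0.55 in the sub-polysomal libraries; these mRNAs lack a poly(A) tail and the libraries were made from poly(A) RNA.

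Stress and degradation pathways held few called genes. Among 54 autophagy and lysosome genes 1 rose and 1 fell with 7 libraries (1.85% each, against 0.132% and 1.06% of all genes), at a median of 0.27. Neu1, the lysosomal sialidase, stood at 25.0, 26.2, 25.7 and 18.7 CPM in ASP shSCR and at 47.1, 44.3, 50.6 and 35.2 CPM in ASP shDHPS, and rose by 0.94 (adjusted p = 0.0464). Rb1cc1, the FIP200 scaffold of the autophagy-initiating kinase complex, stood at 21.5, 46.0, 46.3 and 50.5 CPM against 15.9, 17.1, 15.9 and 15.5 CPM. The 4 knockdown values were close together and below all scramble values. Rb1cc1 fell by 1.53 (adjusted p = 0.000782), with a sub-polysomal log2 change of −0.06 with 8 pellets (adjusted p = 0.922) and −0.27 without ASP shSCR pellet 1 (0.486).

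Of 44 ATF4 and integrated stress response targets, Atf3 alone was called (2.27% higher, against 0.132% of all genes), and the median was 0.42 with 7 libraries, 0.29 with 8 and 0.15 in the sub-polysomal libraries. Among 41 antioxidant, iron and selenoprotein genes, Hmox1, haem oxygenase, stood at 74.2, 28.2, 67.8 and 55.2 CPM in ASP shSCR and at 153, 59.8, 161 and 154 CPM in ASP shDHPS. The groups overlapped through ASP shDHPS replicate 2. It alone of that list was called with 7 libraries (2.44% higher, against 0.132% of all genes), and rose by 1.41 (adjusted p = 0.0216), and by 1.14 in the sub-polysomal libraries (adjusted p = 0.00331).

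Matrix and TGF-β genes are of note because collagen synthesis was a readout of the study. None of 25 collagen chain genes was called, at a median of 0.32 with 7 libraries and 0.08 in the sub-polysomal libraries. Only 11 of them had a mean of at least 50 counts. After Dhps silencing the study measured collagen by staining, which is a different measure from polysomal RNA. Of 25 genes of collagen folding and crosslinking, Plod2, a lysyl hydroxylase, stood at 15.7, 50.4, 24.2 and 27.7 CPM in ASP shSCR and at 13.3, 17.1, 11.4 and 20.4 CPM in ASP shDHPS, with overlap through ASP shSCR replicate 1, and fell by 1.10 with 7 libraries (adjusted p = 0.0462). It was the only member called (4.00% lower, against 1.06% of all genes). In the list of 50 TGF-β ligands, receptors, SMADs and targets, Ccn1 rose (2.00%, against 0.132% of all genes), while Inhba and Skil, a SMAD co-repressor, fell with 7 libraries (4.00%, against 1.06%). The list's median was 0.05 with 7 libraries. Groups of 4 did not overlap in 7 lower members (14.0%, against 4.35% of all genes) and in no higher member (against 1.94%). In the Hallmark TGF-β signaling set this held for 7 of 51 genes, all lower (13.7%). Skil stood at 74.6, 97.0, 68.3 and 93.4 CPM in ASP shSCR and at 37.1, 48.5, 25.8 and 54.2 CPM in ASP shDHPS, without overlap, and fell by 1.02 (adjusted p = 0.0431).

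In the glycolysis and lactate list, 3 of 27 genes were called lower with 7 libraries, which is 11.1% against 1.06% of all genes, and the size of each change depended on 1 library. Ankrd37, a hypoxia-induced ankyrin protein, stood at 0.593, 56.0, 1.10 and 3.48 CPM in ASP shSCR and at 2.04, 3.28, 2.94 and 0.610 CPM in ASP shDHPS. Bnip3, a hypoxia-induced mitophagy receptor, stood at 35.4, 382, 36.2 and 33.2 CPM against 25.2, 44.5, 37.8 and 40.0 CPM. Pdk1, the kinase that inhibits pyruvate dehydrogenase, stood at 26.7, 77.8, 8.97 and 14.2 CPM against 7.65, 10.1, 9.71 and 8.71 CPM. ASP shSCR replicate 2 was the highest library for each, and the other scramble libraries overlapped the knockdown values for Ankrd37 and Bnip3. For Pdk1, ASP shSCR replicates 1 and 4 also lay above the knockdown values. Without ASP shSCR replicate 2, and with the 7 others, the log2 change was 0.35 for Ankrd37, 0.08 for Bnip3 and −0.88 for Pdk1 (adjusted p = 0.319).

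No gene was called in the lists of polyamine metabolism (26 genes), respiratory chain subunits (68), mitochondrial ribosomal proteins (78), proteasome subunits (37), heat shock chaperones (31), interferon-stimulated genes (38), NF-κB and immediate early genes (44), p53 targets (23), integrin subunits (20) or aspartate and nucleotide synthesis (32). Medians of these lists with 7 libraries lay between −0.21, in the integrins, and 0.31, in aspartate and nucleotide synthesis. For the 13 mitochondrially encoded mRNAs the median moved with ASP shSCR replicate 1, from −1.72 with 8 libraries to −0.64 with 7, and the sub-polysomal median was −0.03. The median of 29 nuclear and snoRNA host long noncoding RNAs moved from −0.51 to 0.26.

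Markers of the labelled cells were present and those of other cell types were few. Of 27 epithelial genes 26 were in the table, with Krt8 at the highest mean CPM (1928), and none was called in polysomes. In the sub-polysomal libraries 7 of the 26 were called lower, against 1.12% of all genes, and the median log2 change was −0.33. Of 23 leukocyte markers 7 were in the table, and Cd3e, Itgam, Adgre1 and Lyz2 were not among its genes. The 7 summed to 22.3, 29.1, 21.2 and 25.2 CPM in ASP shSCR and to 33.0, 31.7, 37.7 and 37.9 CPM in ASP shDHPS, and Cd68 was the most abundant, at a mean of 17.0 CPM. Of the 7 markers 3 had a log2 change above 0, and the median was −0.05 with 8 libraries. Cd68 is also a lysosomal gene that other cells express, and the part of leukocytes in the higher sum in ASP shDHPS was not tested. In these bulk libraries more cells of a type and more RNA per cell cannot be told apart. Among 11 endothelial markers, 4 were in the table, summing to 118, 70.0, 98.9 and 80.0 CPM in ASP shSCR and to 144, 98.6, 119 and 96.3 CPM in ASP shDHPS, with Eng the most abundant. Tie1, an endothelial receptor kinase, stood at 5.60, 1.37, 1.21 and 1.49 CPM in ASP shSCR and at 5.06, 4.18, 6.66 and 3.49 CPM in ASP shDHPS, and rose by 1.85 with 7 libraries (adjusted p = 0.0109), while Cdh5, Kdr and Tek were not among the genes of the table. Of the 4 endothelial markers, 2 had a log2 change above 0 and 2 below, with a median of −0.33 with 8 libraries and 0.14 with 7. Of 12 fibroblast and mural markers 5 were in the table, and of 7 adipocyte markers 1, with no call.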

How the data were processed

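The authors trimmed paired-end reads of stranded mRNA libraries with Trim Galore 0.6.6, checked them with FastQC 0.11.9, aligned them to GRCm39 with STAR 2.6.1, estimated gene abundance with Salmon 1.4.0 and used DESeq2 1.34.0 for their own comparisons. The deposited table holds expected counts (estimated counts rounded to whole numbers by the authors). Deposited tables with the authors' own fold changes and p-values were not used here.

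Levels and tests were computed in R 4.3.3 with edgeR 4.0.16: genes with at least 1 count in the libraries compared, TMM factors within them (0.738, 1.14, 1.07 and 1.04 in ASP shSCR; 0.980, 1.11, 0.988 and 0.989 in ASP shDHPS), glmQLFit and glmQLFTest, two-sided, with Benjamini-Hochberg adjustment over all genes and a threshold of 0.05. The test had been planned for read counts and was kept for the rounded estimates. A called gene passed that threshold. SE was the size of the log2 change divided by the square root of F. The interaction was fitted on 16 libraries with the pellet as a term. Alternatives were DESeq2 1.42.0, limma 3.58.1 (voom), other scalings, count filters, a replicate block and leaving out each library. The procedure was tested on simulated data, and no result of that test is used here. Pellets were independent, but both lines were single polyclonal populations, so p-values measure the spread between pellets.

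Named genes were the hypusine pathway genes and Grin2d, the called genes of largest change whose groups were separate and whose count averaged 100 or more (where fewer than 6 remained, as here in both directions, the 6 of smallest unadjusted p), and members of lists with the smallest p or a call. A repeat on the 7-library fit was chosen after its values were seen. Members, lists and tests were chosen with earlier results of these data known. Coding sequences came from GENCODE M21 on GRCm38, a different build from the counts, and were matched by gene.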

Additional observations from a re-analysis of the deposited data

Results flagged for a closer look

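In 14 of 108 groups of 4 values examined, 1 library lay far from the rest of its group by the Dixon ratio. A single group passes this limit by chance in about 1 of 20 cases. Most of the 108 groups were of named genes, which share libraries and were chosen with earlier results of these data known. The count of 14 therefore cannot be compared with that rate. In polysomal ASP shSCR the far value was that of replicate 1 for Fth1 (59670 CPM), Odc1 (4575 CPM), Atf3 (34.4 CPM), Tie1 (5.60 CPM) and Rb1cc1 (21.5 CPM). It was that of replicate 2 for Bnip3 (382 CPM) and Ankrd37 (56.0 CPM), and that of replicate 4 for Malat1 (44.5 CPM), Neu1 (18.7 CPM) and Eif5a2 (5.06 CPM). In ASP shDHPS the far value was that of replicate 1 for Prnd (21.0 CPM) and Pcm1 (21.3 CPM), and that of replicate 2 for Hmox1 (59.8 CPM) and for the TMM factor (1.11).

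For 6 of the named genes the change in polysomes differed from the sub-polysomal change by the edgeR interaction test without ASP shSCR pellet 1, always downward in polysomes. The differences on the log2 scale were −1.59 for Kif5b, −1.35 for Lrrcc1, −1.34 for Ppig, −1.33 for Tmf1, −1.28 for Rb1cc1 and −1.22 for Pcm1. With all 8 pellets the same test called 0 genes, with 1762 at an unadjusted p under 0.05.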

How the results depend on the processing

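With 8 libraries (1 higher and 0 lower calls by edgeR), DESeq2 gave 18 and 103, voom 16 and 238, all 16 polysomal libraries in the fit 2 and 28, the library position as a covariate 8 and 67, and the GC offset 2 higher; leaving out each library gave 0 to 23 higher and 0 to 186 lower. With 7 libraries (23 and 186), filterByExpr gave 12 and 89, a minimum of 10 counts in every library 12 and 116, DESeq2 72 and 387, voom 44 and 358, all polysomal libraries 12 and 121 and the GC offset 9 and 31; leaving out each further library gave 6 to 64 higher and 34 to 409 lower, with 43 and 299 without ASP shSCR replicate 2, 46 higher without ASP shSCR replicate 3, and 15 and 61 without ASP shDHPS replicate 1. The 301 sub-polysomal calls became 671 with DESeq2 and 103 to 506 when a library was left out. The interaction, with 0 calls, gave 48 with DESeq2, 37 with all 32 libraries and 0 to 66 when a pellet was left out; without ASP shSCR pellet 1 it gave 27 with DESeq2 size factors, 92 with DESeq2 and 0 with filterByExpr. Dhps (−1.65) passed the threshold with DESeq2 (−1.63), voom (−1.66), all polysomal libraries (−1.64) and the position covariate (−1.75), and ranged from −1.78 to −1.50 when a library was left out. The cause of these shifts was not tested. The GC offset, the position covariate and the alternatives of the 7-library fit were chosen after seeing the data.

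Of 943 values of the other 50 named genes, 812 kept direction and side of the threshold, 119 passed it, 4 lost it and 8 reversed. Fth1 (−3.56) became 0.84 and Odc1 (−2.37) 0.87 with the position covariate, and Odc1 0.11 with voom. Over left-out libraries Fth1 ranged from −3.95 to 0.28, Odc1 from −2.74 to 0.48, Ankrd37 from −3.17 to 0.35, Bnip3 from −2.04 to 0.078 and Eif5a2 from −0.67 to 0.061.

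Deviations of same-numbered samples correlated at r = −0.02, 0.47, −0.18 and 0.36, and those of differently numbered samples at −0.355 to 0.308. The highest values, 0.47 and 0.36, were thus of same-numbered samples. The numbers were read as names of pellets within a condition and not taken as pairs. Whether they mark a shared batch is not settled by these values. A replicate block gave 1 higher and 1 lower call with 8 libraries, 324 and 643 with 7, 1020 sub-polysomal calls and a Dhps change of −1.63. Depth limits genes of low count, such as Tie1 (mean count 64.5) and Grin2d (73.6).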

Other observations

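The other polysomal libraries of the series, scaled together with the 8 above, gave the level of some named genes under different conditions. Gpnmb stood at 51.9, 31.6, 40.7 and 82.2 CPM in spheroids with an shRNA against Grin2d and aspartate, and at 12.3, 15.2, 22.5 and 40.8 CPM in scramble spheroids without added aspartate. Lrrcc1 stood at 8.23, 15.3, 20.4 and 11.7 CPM with the Grin2d shRNA and at 15.6, 23.8, 18.6 and 23.2 CPM without aspartate. Sesn3 stood at 62.9, 71.0, 54.4 and 38.6 CPM and at 75.2, 108, 77.5 and 59.8 CPM in these conditions. Igfbp7 stood at 8.84, 7.00, 9.77 and 11.8 CPM and at 10.1, 5.70, 4.04 and 3.19 CPM. Dhps stood at 31.4, 44.4, 26.9 and 33.6 CPM with the Grin2d shRNA and at 34.6, 36.7, 27.2 and 27.2 CPM without aspartate. These values were not tested here.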
